A study of Mus musculus with 16 samples.

Results

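The genes described are the aldehyde, alcohol and steroid oxidoreductases of the liver: dehydrogenases and reductases that move hydrogen on or off aldehydes, alcohols, ketones and steroids, with the flavin monooxygenases beside them. They were taken as every array probe whose only gene symbol began with Adh and a digit, or with Aldh, Akr, Hsd, Cbr, Rdh, Dhrs, Aox or Fmo, after 6 named relatives had been set aside. This gave 39 genes from 40 probes among 6734 named genes of the series. One of them, Fmod, encodes fibromodulin, a collagen-binding proteoglycan that shares only the first letters, so 38 genes are oxidoreductases by name. Of these, 36 had values in 6 or more mice and were tested, among 8348 genes and unnamed probes in all. Hsd11b2, which inactivates corticosterone, had values in 2 mice and Hsd17b12, an enzyme of fatty acid elongation, in 5 mice, and both were left untested.

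Alcohol dehydrogenases (Adh) oxidise alcohols such as ethanol and retinol to aldehydes, and aldehyde dehydrogenases (Aldh) carry the aldehydes on to acids. Aldo-keto reductases (Akr) and carbonyl reductases (Cbr) work the other way, reducing carbonyl groups with NADPH. Hydroxysteroid dehydrogenases (Hsd) switch steroid hormones between active and inactive forms, retinol dehydrogenases (Rdh) and several short-chain dehydrogenases (Dhrs) interconvert retinol and retinaldehyde, and flavin monooxygenases (Fmo) add oxygen to nitrogen or sulphur atoms of foreign compounds.

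The animals were female APOE3-Leiden (E3L) mice, which carry a human APOE variant as a transgene, so treated and control animals alike have it. All were fed a Western-type diet with 15 g fat and 0.25 g cholesterol per 100 g, from 10 weeks of age and for 4 weeks. The 8 treated mice also received the coffee diterpenes cafestol (0.04% of diet weight) and kahweol (0.02%), and 7 control mice did not. Because both compounds were given together, their effects cannot be told apart. Liver poly(A) RNA of each treated mouse, labelled with Cy5, was hybridised on 2 cDNA arrays against control-diet liver RNA labelled with Cy3, giving 16 arrays. The question was which of these enzymes' transcripts differ between the diets. Treated mice carry identifiers that begin with SY (4 mice: SY521RL, SY518Z, SY524ROB+L and SY522ROB) or TP (4 mice: TP4215, TP4168, TP4205 and TP4163), and the labels do not say what these mean.

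Between 8094 and 9314 of 9596 probes had a value per array, every array had a median of 0, and the numbers of arrays and mice limit the precision. Values are deposited log2 ratios. No label states which channel was divided by which, so each sign is the deposited one and no gene is said to rise or fall. As landmarks, the glutathione transferase Gstm1 stood at -2.48 ± 0.23 (SD, n = 8) and Cyp7a1, which catalyses the first step of classical bile acid synthesis, at 1.56 ± 0.38. Dyes were never swapped and no label names single control mice, so any dye bias of a probe is present in all mice alike, and the spread among controls is not in the test. The ratios moved in steps, the first 0.14 from 0, and 31.8% of all values were exactly 0. Ratios hold no levels, so the labelled tissue could not be checked against its markers.

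Promoters of 4 members are printed here, each running from 250 bases before to 50 after the transcription start on the gene's own strand (RefSeq, build GRCm38.p6). Hsd3b3 and Hsd3b1 had the highest ratios among steroid dehydrogenases and Cbr3 the lowest ratio of all members, and Hsdl1 is a negative member whose promoter held the first of 2 motifs searched.
Hsd3b3 (chr3:98763079-98763378, minus strand): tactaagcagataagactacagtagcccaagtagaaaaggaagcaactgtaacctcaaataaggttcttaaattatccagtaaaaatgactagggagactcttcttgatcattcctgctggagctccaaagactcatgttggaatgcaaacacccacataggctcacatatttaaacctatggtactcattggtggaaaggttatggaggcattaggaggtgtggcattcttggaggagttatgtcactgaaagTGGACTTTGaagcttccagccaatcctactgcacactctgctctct
Hsd3b1 (chr3:98859745-98860044, minus strand): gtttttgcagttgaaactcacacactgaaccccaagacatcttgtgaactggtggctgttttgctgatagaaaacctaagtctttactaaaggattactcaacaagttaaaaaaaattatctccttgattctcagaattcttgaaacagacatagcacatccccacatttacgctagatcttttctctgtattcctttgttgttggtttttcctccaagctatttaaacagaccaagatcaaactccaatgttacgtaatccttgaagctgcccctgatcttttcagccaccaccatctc
Cbr3 (chr16:93682969-93683268, plus strand): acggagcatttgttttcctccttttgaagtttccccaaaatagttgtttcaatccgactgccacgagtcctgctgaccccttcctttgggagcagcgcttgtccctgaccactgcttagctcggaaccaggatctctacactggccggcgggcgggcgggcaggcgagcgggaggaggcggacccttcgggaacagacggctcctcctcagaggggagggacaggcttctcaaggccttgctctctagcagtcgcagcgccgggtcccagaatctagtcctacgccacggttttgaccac
Hsdl1 (chr8:119575126-119575425, minus strand): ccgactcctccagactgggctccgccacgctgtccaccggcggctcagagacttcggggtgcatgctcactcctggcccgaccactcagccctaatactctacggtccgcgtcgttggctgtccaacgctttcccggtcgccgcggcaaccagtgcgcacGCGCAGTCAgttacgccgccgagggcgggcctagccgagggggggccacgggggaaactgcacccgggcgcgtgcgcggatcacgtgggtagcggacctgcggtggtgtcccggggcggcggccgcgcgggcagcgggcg
Capitals in the Hsdl1 promoter mark TGACNNNGC, the core of the antioxidant response element bound by NRF2, which lies there in reverse as GCGCAGTCA and begins 90 bases before the start. In the Hsd3b3 promoter they mark CAAAGTCCA, a site type of the liver nuclear receptor HNF4, which lies in reverse as TGGACTTTG from 4 bases after the start. Both strands were searched, the motifs share no letters in these promoters, and some genes have a further start with its own promoter. TGACNNNGC was in 6 of the 29 oxidoreductases with a promoter in the table (20.7%), against 14% of 27025 genes. It was in 2 of 5 members called negative (Hsdl1 and Hsd17b13) and 1 of 8 called positive (Aldh1a2). It was also in 2 of 15 not called (Akr1c19 and Hsd11b1) and in the untested Hsd17b12. The promoter of the second Hsdl1 start held no match, and the Hsd17b13 match began 18 bases after the start. CAAAGTCCA was in Hsd3b3 alone among the 29, against 0.555% of all genes. These matches are letters in a window and are not shown to be binding sites.

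The diet ratio was on opposite sides of 0 for different members. Of the 36 tested oxidoreductases, 11 were called positive and 6 negative (limma, mean of 8 mice against 0, Benjamini-Hochberg adjusted p under 0.05), and 19 were not called. These were shares of 30.6% and 16.7%, where 18.0% of all features tested were called positive and 25.4% negative. The median member ratio was 0.01, against -0.02 over all features. Most differences were small: beyond 1.2-fold, 1.47% of all features were called, and among members only Hsd3b3, Aldh3a2 and Hsd3b1 (limma's treat, adjusted p = 0.00659, 0.0321 and 0.0421). In whole-liver RNA, fewer cells of a type and less RNA per cell cannot be told apart.

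**Figure D1:**
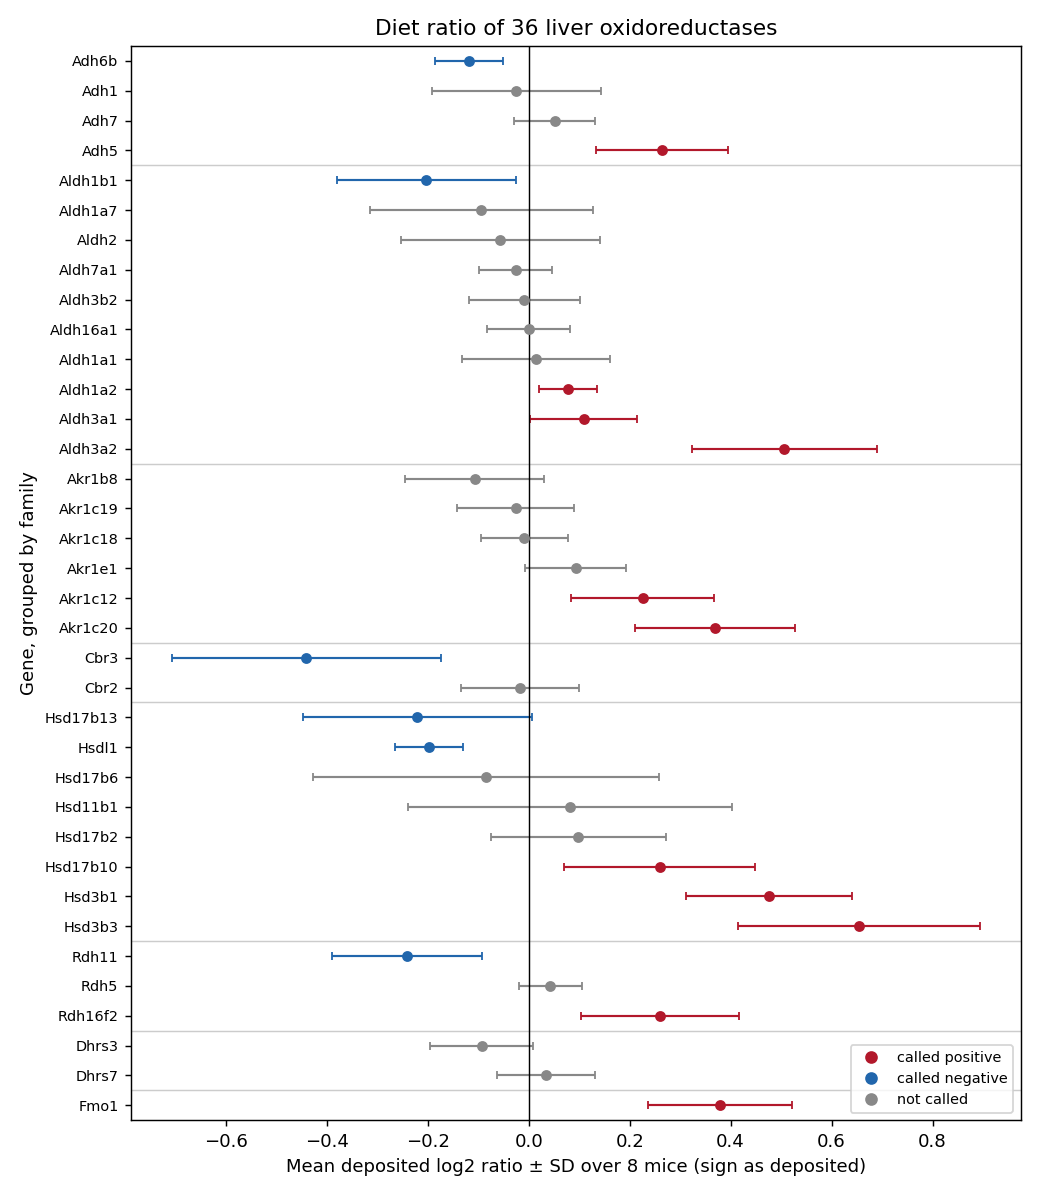
Mean deposited log2 ratio with its SD over 8 mice (horizontal axis) for the 36 tested oxidoreductases, grouped by family (vertical axis) and coloured by call. Hsd3b3 at 0.65 and Aldh3a2 at 0.51 lie farthest right and Cbr3 at -0.44 farthest left.

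Among the steroid dehydrogenases, 8 of 10 Hsd genes were tested, with 3 called positive, 2 negative and 3 not called. The highest pair were 3-beta-hydroxysteroid dehydrogenases, which turn 3-beta-hydroxy-5-ene steroids into 3-keto-4-ene steroids. Hsd3b3 (Entrez 15494), the form of liver and kidney, ran from 0.26 in SY521RL through a median of 0.69 to 1.0 in TP4168. It was positive in 8 of 8 mice and 1.57-fold from 0 on average, at 0.65 ± 0.24 (SD, n = 8; limma, adjusted p = 2.68e-05). Hsd3b1 (Entrez 15492), best known from adrenal and gonad, ran from 0.20 in SY524ROB+L through a median of 0.48 to 0.72 in TP4168. Its mean was 0.48 ± 0.16, a 1.39-fold difference with the same adjusted p, and again no mouse was at or below 0.

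The 2 genes lie on chromosome 3 with 1 protein-coding gene between them in the RefSeq order, and the mice ranked alike for both. Over 8 mice Pearson's r was 0.833 (exact permutation p = 0.0123, adjusted over 3 gene pairs 0.0369) and Spearman's rho 0.867 (exact permutation p = 0.00933, adjusted 0.0280). Without TP4168 and SY524ROB+L, the mice farthest from the median of Hsd3b1, r was 0.871, and the SY and TP series hold too few mice for values of their own. Both genes averaged lower in SY than in TP mice, at 0.40 and 0.55 for Hsd3b1 and 0.51 and 0.80 for Hsd3b3. Neither difference was called. The pooled r and rho hold this difference between the series, and its part in them was not tested. Close paralogs can bind each other's cDNA probe, and how far these probes shared transcripts was not tested.

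Hsd17b10, a mitochondrial enzyme of isoleucine breakdown that also serves in mitochondrial tRNA processing, was called positive at 0.26 ± 0.19 (n = 8; adjusted p = 0.00303). It was positive in 7 mice and 0 in TP4163. On the negative side, Hsdl1 (Entrez 72552) ran from -0.33 in TP4163 through -0.19 to -0.09 in SY522ROB, with a mean of -0.20 ± 0.07 (adjusted p = 3.01e-04). Its value is the mean of 2 probes that differed, one at -0.36 ± 0.07 with 8 negative mice and the other at -0.03 ± 0.09 with 4. With the first probe alone the adjusted p was 6.90e-06 (limma). The second probe was not fitted alone, so the call cannot be credited to both probes. Hsd17b13, a protein of lipid droplets, stood at -0.22 ± 0.23 (adjusted p = 0.0173), from -0.43 to 0.20. The call for Hsd17b13 was lost without TP4168 or TP4163 (adjusted p = 0.0516 to 0.0532).

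The other Hsd genes were not called. Hsd11b1, which regenerates active glucocorticoid in liver, averaged 0.08 ± 0.32, and Hsd17b6, which oxidises androgens, -0.08 ± 0.34, the widest spreads of all members. SY518Z stood apart in both, as described further on. Hsd17b2, which inactivates estradiol and testosterone, averaged 0.10, and of the fits without 1 mouse only that without TP4205 called it (adjusted p = 0.0327).

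Aldehyde dehydrogenases gave 3 positive calls, 1 negative and 6 uncalled among 10 genes. Aldh3a2 (Entrez 11671), the fatty aldehyde dehydrogenase of the endoplasmic reticulum, ran from 0.26 in TP4163 through 0.51 to 0.85 in SY518Z. All 8 mice were positive, and the mean of 0.51 ± 0.18 was 1.42-fold from 0 (adjusted p = 3.10e-05). Its chromosomal neighbour Aldh3a1, an enzyme for aromatic and fatty aldehydes, averaged 0.11 ± 0.11 (adjusted p = 0.0325), with 5 positive mice and 3 at 0. Aldh1a2, which makes retinoic acid from retinaldehyde, averaged 0.08 ± 0.06 (adjusted p = 0.0428), from 0 to 0.14.

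Both of these genes lay near the threshold. Aldh1a2 lost its call without any 1 of SY521RL, SY518Z, TP4168, SY524ROB+L, TP4205 and SY522ROB (adjusted p = 0.0673 to 0.104), and Aldh3a1 without any 1 of SY521RL, SY518Z, TP4168, SY524ROB+L and SY522ROB (0.0520 to 0.0841). Their means moved little, between 0.07 and 0.09 for Aldh1a2 and between 0.09 and 0.12 for Aldh3a1. On the second array of each mouse alone neither was called (0.07, adjusted p = 0.114, and 0.12, adjusted p = 0.0568).

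Aldh1b1, a mitochondrial aldehyde dehydrogenase, was the only negative call of its family at -0.20 ± 0.18 (adjusted p = 0.00930). Of its 8 mice 7 were negative, and SY518Z stood at 0.20. Aldh2, the mitochondrial enzyme that clears acetaldehyde, averaged -0.06 and was not called. Aldh1a1, which oxidises retinaldehyde in the cytosol, averaged 0.01, and its neighbour and close relative Aldh1a7 -0.09. Among the remaining uncalled genes, Aldh7a1, an enzyme of lysine breakdown, averaged -0.03, Aldh3b2 -0.01 and Aldh16a1 0.

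Alcohol dehydrogenases differed within 1 gene cluster, where Adh7, Adh1, Adh6b and Adh5 follow each other with at most 1 protein-coding gene between neighbours. Adh5 (Entrez 11532), the glutathione-dependent formaldehyde dehydrogenase, ran from 0.14 in SY522ROB through 0.20 to 0.54 in SY518Z. It was positive in every mouse, with a mean of 0.26 ± 0.13, 1.2-fold from 0 (adjusted p = 4.40e-04). Adh6b (Entrez 229871) lay on the other side, from -0.26 in TP4163 through -0.10 to -0.07, with a mean of -0.12 ± 0.07 (adjusted p = 0.00731) and 8 negative mice. For Adh6b the SD between the arrays of a mouse, 0.0951, exceeded the SD between mice, 0.0673. The first arrays alone gave -0.15 (adjusted p = 0.00435) and the second -0.08, where the call was lost (adjusted p = 0.0951). The main ethanol dehydrogenase of liver, Adh1, averaged -0.02, with 4 mice above and 4 below 0, and Adh7, known from the stomach lining, 0.05; neither was called.

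**Figure D2:**
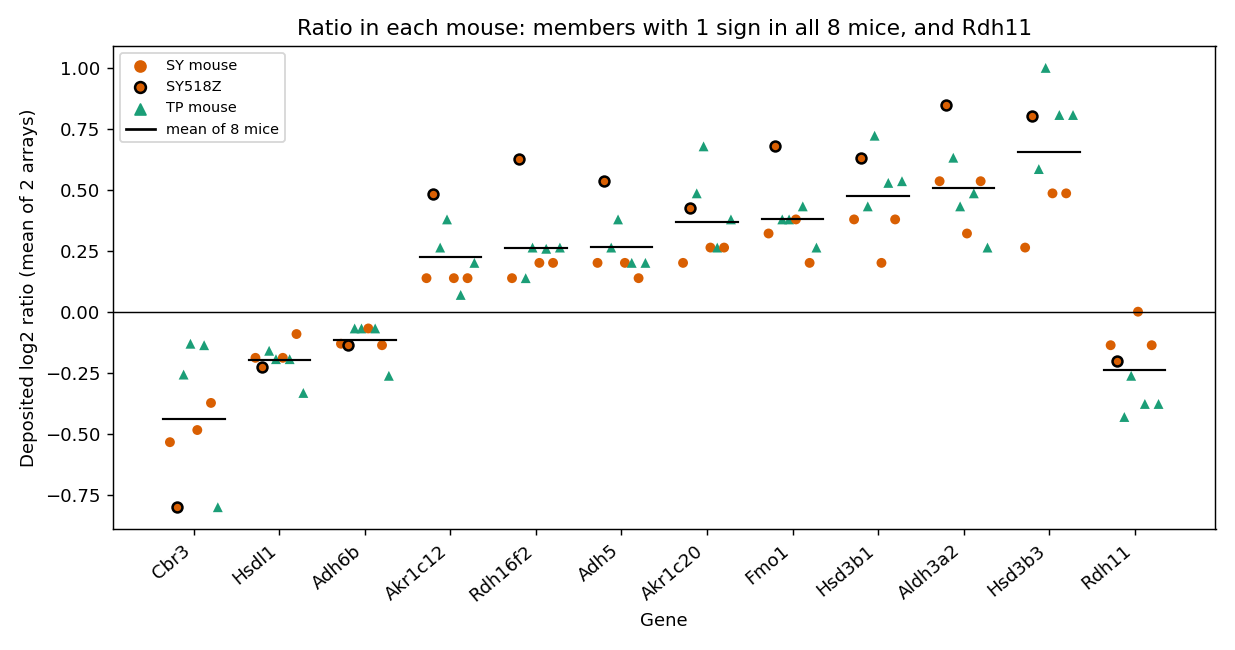
Deposited log2 ratio (vertical axis) of each of the 8 mice for the 11 called genes with 1 sign in every mouse, and for Rdh11 (horizontal axis). Circles are SY mice, with SY518Z outlined, triangles are TP mice, and bars are means of 8 mice. Hsd3b3 reaches 1.0 in TP4168, and Cbr3 reaches -0.80 in SY518Z and TP4163.

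Of the aldo-keto reductases, 2 of 6 were called, both positive and both in the Akr1c cluster, whose members include reductases of steroids. Akr1c20 (Entrez 116852) ran from 0.20 in SY521RL through 0.32 to 0.68 in TP4168, with a mean of 0.37 ± 0.16, 1.29-fold from 0 (adjusted p = 1.19e-04). Akr1c12 (Entrez 622402) ran from 0.07 in TP4205 through 0.17 to 0.48 in SY518Z, with a mean of 0.23 ± 0.14 (adjusted p = 0.00176). No mouse was at or below 0 for either gene.

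The mice ranked alike for Akr1c20 and Akr1c12 by rho, 0.825 (exact permutation p = 0.0199, adjusted over 3 pairs 0.0299). Pearson's r was 0.743 (exact permutation p = 0.0601, adjusted 0.0902), short of the threshold, and 0.859 without SY518Z and TP4168. Akr1c20 averaged 0.29 in SY and 0.45 in TP mice, while Akr1c12 averaged 0.22 and 0.23. Neither difference was called. The pooled r and rho mix the series, and the part of this in them was not tested. Akr1c6, the relative that lies between them on the chromosome, had been set aside by the rule; it stood at 0.26 ± 0.11 (adjusted p = 2.32e-04). Akr1c19, next to Akr1c12, averaged -0.03, and Akr1c18, which inactivates progesterone, -0.01; these 2 were not called. As with the Hsd3b pair, shared binding of paralogs to the probes was not tested.

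Akr1e1, a reductase of the sugar 1,5-anhydrofructose, averaged 0.09 (adjusted p = 0.0544) and was called without TP4163 (adjusted p = 0.0245). Akr1b8, an aldose reductase-like enzyme, averaged -0.11 (adjusted p = 0.0664) and was called without SY524ROB+L (adjusted p = 0.0297).

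Cbr3 (Entrez 109857), a carbonyl reductase, had the lowest mean of all members at -0.44 ± 0.27, a 1.36-fold difference (adjusted p = 6.90e-04). It ran from -0.80 through a median of -0.43 to -0.13, and 8 of 8 mice were negative. SY518Z and TP4163 were the lowest at -0.80, and TP4168 and TP4205 were nearest 0. The arrays of a mouse differed for Cbr3 by an SD of 0.149, below the 0.267 between mice. Its neighbour Cbr1, set aside by the rule, stood at -0.91 ± 0.15. Over 8 mice r for the pair was -0.02 (exact permutation p = 0.958, adjusted over 3 pairs 0.958) and rho -0.08 (exact permutation p = 0.849, adjusted 0.849), and r was -0.36 without TP4205 and TP4163. These pooled values mix series whose means lay in opposite order, at -0.80 in SY and -1.01 in TP mice for Cbr1 and at -0.55 and -0.33 for Cbr3, so they do not show that the pair was unrelated; 4 mice a series are too few for values of their own. Cbr2, known from lung mitochondria, averaged -0.02 and was not called.

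The retinol dehydrogenases held 1 positive, 1 negative and 1 uncalled gene. Rdh16f2 (Entrez 216454) ran from 0.14 in SY521RL and TP4215 through 0.23 to 0.63 in SY518Z, and all 8 mice were positive. Its mean was 0.26 ± 0.16, 1.2-fold from 0 (adjusted p = 0.00116), and without SY518Z it was 0.21 (adjusted p = 4.73e-04). Rdh11 (Entrez 17252), a microsomal enzyme that reduces retinaldehyde, averaged -0.24 ± 0.15 (adjusted p = 0.00154), with 7 negative mice and SY524ROB+L at 0. Rdh5, known from the visual cycle of the eye, averaged 0.04 and was not called.

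Of the short-chain dehydrogenases, Dhrs3, another retinaldehyde reductase, averaged -0.09 (adjusted p = 0.0556) and Dhrs7 0.03, and neither was called. The call for Dhrs3 was made without SY524ROB+L or without SY522ROB (adjusted p = 0.0227 to 0.0425). Fmo1 (Entrez 14261), the 1 tested flavin monooxygenase of the rule, ran from 0.20 in SY522ROB through 0.38 to 0.68 in SY518Z, with all mice positive. The mean was 0.38 ± 0.14, 1.30-fold from 0 (adjusted p = 5.82e-05). Its relative Fmo5, set aside by the rule, stood at 0.35 ± 0.36 (adjusted p = 0.0144), with 0.07 in SY and 0.63 in TP mice (adjusted p of the difference 0.0218). Fmod, the proteoglycan caught by its letters, averaged 0.07 and was not called.

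Of the other relatives set aside, Hsd17b4, the peroxisomal multifunctional enzyme, stood at 0.26 ± 0.21 (adjusted p = 0.00527) and Hsd17b7, which also acts in cholesterol synthesis, at 0.02, not called. Hsd3b7, an enzyme of bile acid synthesis, was not analysed here.

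Between SY and TP mice, 1 of 36 oxidoreductases was called, where 5.70% of all features were. At an unadjusted p under 0.05 there were 4 members by limma. The share of all features at that unadjusted threshold was not counted, here or for the alternative runs below. The called gene was Rdh11. Its SY mice stood at -0.14 (SY521RL), -0.20 (SY518Z), 0 (SY524ROB+L) and -0.14 (SY522ROB), and its TP mice at -0.43 (TP4215), -0.26 (TP4168), -0.38 (TP4205) and -0.38 (TP4163). The groups did not overlap, and every TP mouse lay lower. SY mice averaged -0.12 and TP mice -0.36, a difference of 0.24 with a standard error of 0.06 (limma, adjusted p = 0.0415). The call held without SY518Z (adjusted p = 0.0196) but not without any 1 of the other 7 mice (0.0510 to 0.123). A code in the array titles nearly follows the series: it is bl7 for TP and c3z for SY mice, with 1 array of each for SY518Z. Over 16 arrays with mouse as a random block, the adjusted p for Rdh11 was 0.0114 (limma). With the code added to that model it was 0.0656, where only SY518Z separates series from code.

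Aldh3a1 came next between the series. SY mice stood at 0.14 to 0.26 and TP mice at 0 to 0.07 without overlap, a difference of 0.18 ± 0.05 (SE), which missed the threshold (adjusted p = 0.0572). For Aldh2 the difference was 0.28 ± 0.08 (SE; adjusted p = 0.0733).

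One treated mouse, SY518Z, was set apart from the rest in many members. It alone had the highest ratio in 16 of the 36 oxidoreductases (44.4%), while over all 8059 features with 8 values it alone was highest in 6.20%. Among the 3547 called features this share was 7.87%. Where the highest and lowest mouse lay 0.5 or more apart, it was 13.3% of 1040 features and 72.7% of 11 oxidoreductases. SY518Z was also alone at the bottom in 12.6% of all features, and in 1 of the 36 oxidoreductases. Over all features TP4215 was most often alone at the top, in 19.9%, yet it was so in 0 of the 36 oxidoreductases. The pattern was noticed after the values were seen, and these shares are descriptions without a test.

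**Figure D3:**
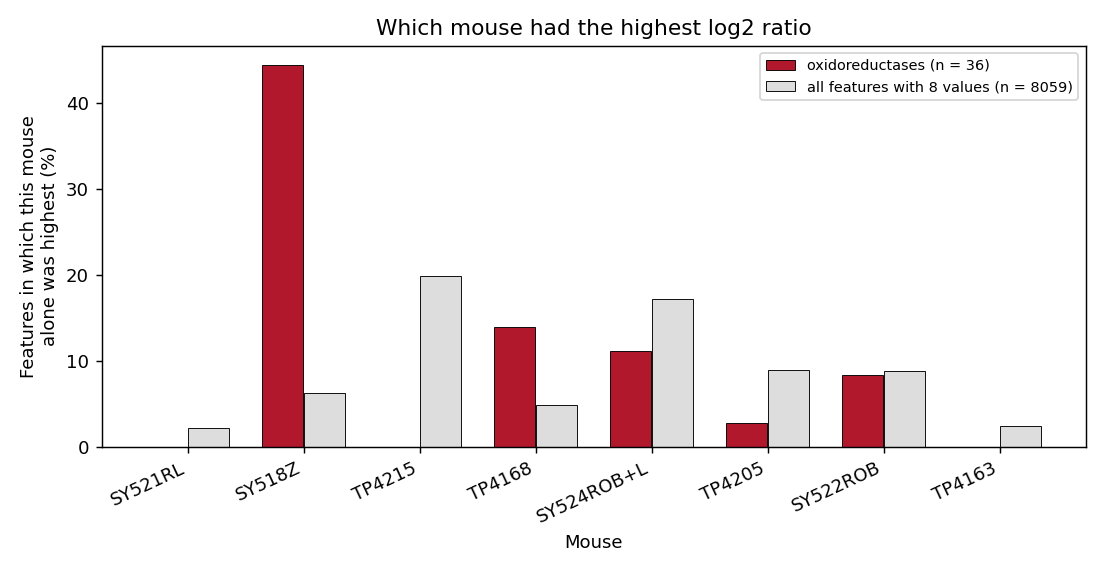
Percentage of features (vertical axis) in which each of the 8 mice (horizontal axis) alone had the highest deposited log2 ratio, for the 36 oxidoreductases and for all 8059 features with 8 values. SY518Z reaches 44.4% of the oxidoreductases and 6.20% of all features.

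The genes concerned act on different substrates. Hsd11b1 was 0.81 in SY518Z, while the other mice lay between -0.14 and 0.26. Hsd17b6 was 0.68 there and between -0.43 and 0 elsewhere. Aldh1a7 was 0.38 there and between -0.26 and 0 elsewhere. These 3 genes, none of them called for the diet, were highest in the same mouse.

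Both arrays of SY518Z gave these values. They read 0.77 and 0.85 for Hsd11b1, 0.68 and 0.68 for Hsd17b6, 0.38 and 0.38 for Aldh1a7, 0.77 and 0.49 for Rdh16f2, and 0.14 and 0.26 for Aldh1b1. Over all features, however, the 2 arrays of SY518Z correlated at 0.761, below the 0.853 to 0.913 of the other mice. They share the RNA but carry different array codes, bl7 and c3z, while the 2 arrays of every other mouse share a code. For this correlation the mouse and the difference in code cannot be told apart. The part that hybridisation had in the pattern was not tested.

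**Figure D4:**
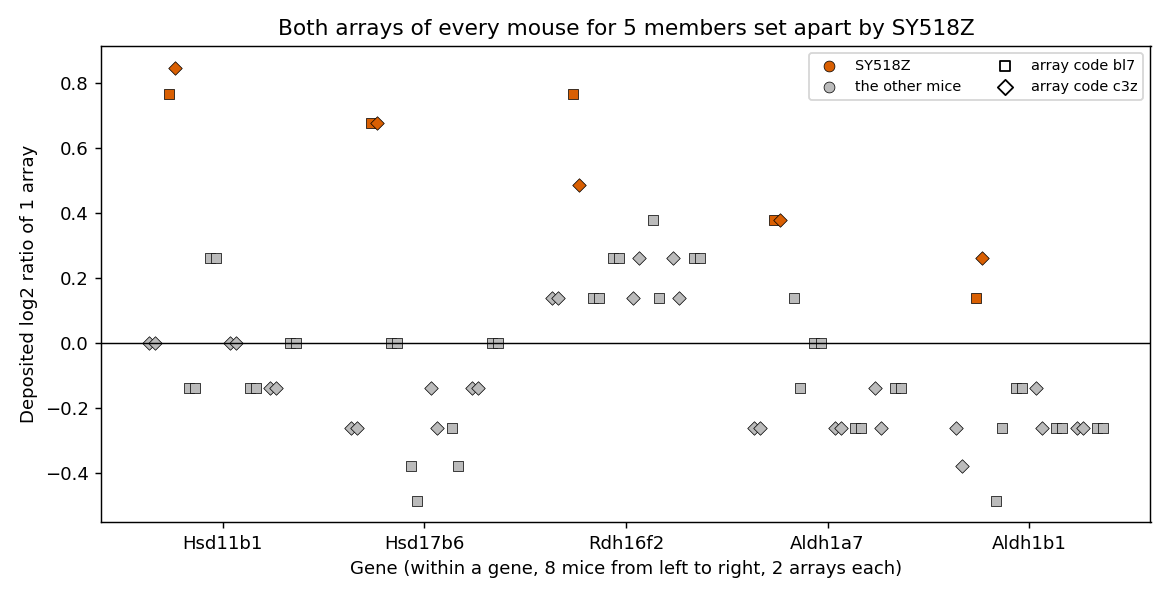
Deposited log2 ratio of each of the 16 arrays (vertical axis) for 5 oxidoreductases in which SY518Z stood apart (horizontal axis), with mice from left to right in the order SY521RL, SY518Z, TP4215, TP4168, SY524ROB+L, TP4205, SY522ROB, TP4163. Both arrays of SY518Z lie above those of the other mice, at 0.77 and 0.85 for Hsd11b1.

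Leaving SY518Z out moved 2 members over the threshold. Hsd17b6 then averaged -0.19 (limma, adjusted p = 0.0141) and Aldh1a7 -0.16 (adjusted p = 0.0122), both negative. Hsd11b1 averaged -0.02 without SY518Z and was not called. The mouse had been picked out for its high values in these same genes. Lower means and narrower spreads without it follow from that choice, so these fits are descriptions and no separate test. Of the 17 called members, 14 kept their call whichever mouse was left out; the exceptions were Aldh1a2, Aldh3a1 and Hsd17b13.

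Genes that act beside these enzymes were taken from lists of related pathways. Retinoid handling had 15 tested genes, 5 positive, 4 negative and 6 not called, with a median of -0.02. The farthest was Cyp26a1, which degrades retinoic acid, at 0.49 ± 0.10 (limma, adjusted p = 2.46e-06), followed by the retinoic acid receptor Rarb at 0.24 ± 0.10 (adjusted p = 2.02e-04) and the carotenoid oxygenase Bco2 at 0.19 ± 0.07 (adjusted p = 4.26e-04). Among the oxidoreductases of retinoids, the called genes were Rdh16f2 at 0.26, Rdh11 at -0.24 and Aldh1a2, near the threshold, at 0.08. Aldh1a1 at 0.01, Dhrs3 at -0.09, Rdh5 at 0.04 and Adh1 at -0.02 were not called.

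Steroid hormone metabolism had 7 tested genes, with 3 positive, 1 negative and 3 not called, and a median of 0.03. Cyp17a1, the 17-alpha-hydroxylase of steroid synthesis, stood at 0.83 ± 0.31 (adjusted p = 2.68e-05), on the same side as Hsd3b3 and Hsd3b1. The corticosteroid carrier Serpina6 stood at 0.35 ± 0.40 (adjusted p = 0.0237) and the glucocorticoid receptor Nr3c1 at 0.19 ± 0.06 (adjusted p = 3.12e-04).

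A list around the supply of NADPH, the cofactor of the Akr and Cbr reductases, gave 3 negative and 2 positive calls among 5 genes. Its median was -0.23. The list also holds transketolase and transaldolase, enzymes of the pentose phosphate pathway that make no NADPH themselves. Transketolase (Tkt) stood at -0.46 ± 0.12 (adjusted p = 7.06e-06), malic enzyme (Me1) at -0.43 ± 0.19 (adjusted p = 1.15e-04) and transaldolase (Taldo1) at -0.23 ± 0.09 (adjusted p = 2.22e-04). Of the listed genes that make NADPH, Me1 was thus negative, while Idh1 and Nnt were positive at 0.11 each. Among the Akr and Cbr members, Cbr3 was negative, Akr1c20 and Akr1c12 were positive, and the others were not called.

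Of 2 other enzymes that oxidise ethanol, Cyp2e1 was positive at 0.22 ± 0.25 (adjusted p = 0.0292) and catalase (Cat) negative at -0.12 ± 0.09 (adjusted p = 0.0153). Of 3 genes for molybdenum enzymes and their cofactor, Mocs2 was positive at 0.24 ± 0.12 (adjusted p = 5.24e-04), and 2 were not called.

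**Figure D5:**
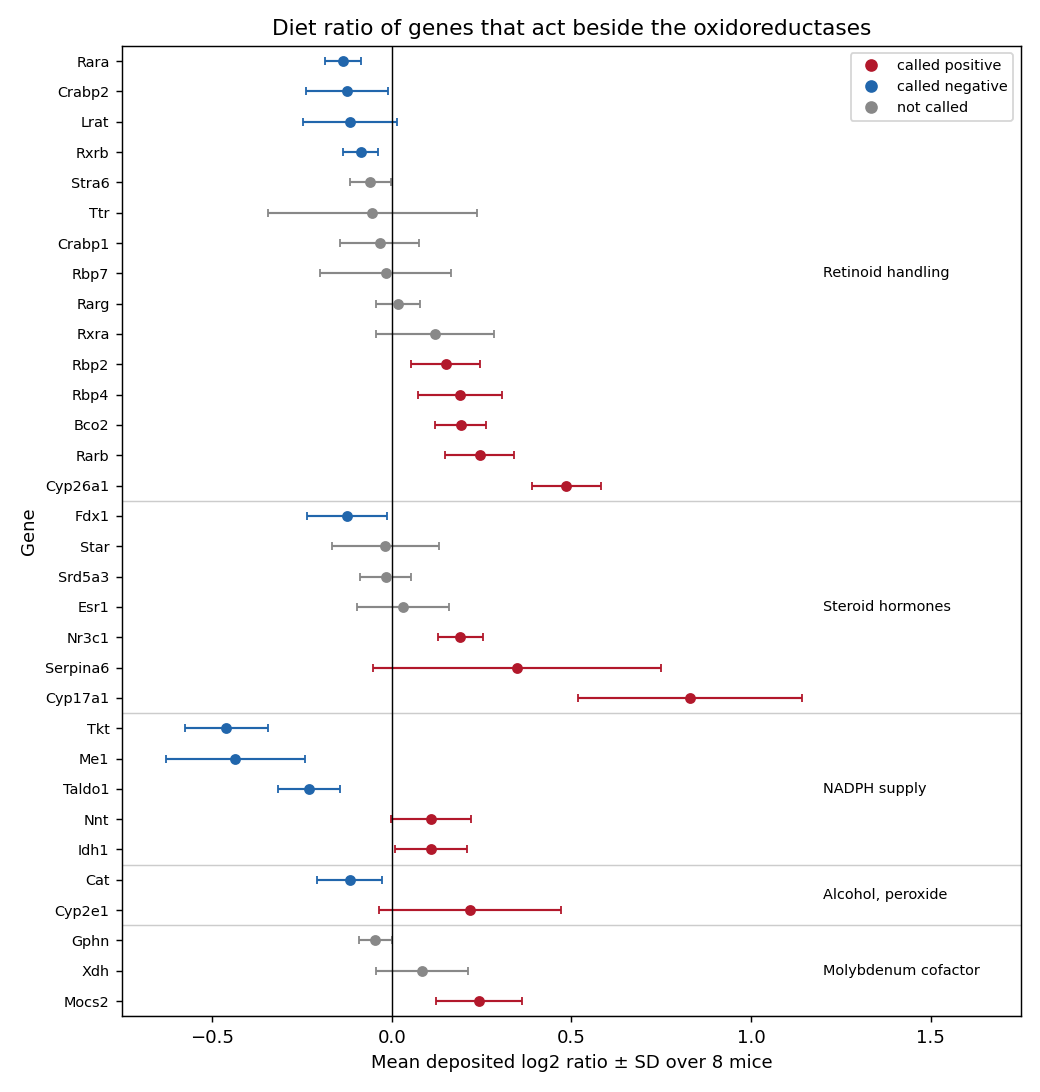
Mean deposited log2 ratio with its SD over 8 mice (horizontal axis) for the tested genes of 5 pathway lists (vertical axis), coloured by call. Cyp17a1 at 0.83 and Cyp26a1 at 0.49 lie farthest right, and Tkt at -0.46 and Me1 at -0.43 farthest left.

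Markers of other liver cell types are set here beside the shares over all features, 25.4% called negative and 18.0% positive. Of 8 macrophage markers, 4 were negative, 1 positive and 3 not called, from -0.65 to 0.17. Of 3 bile duct markers 2 were negative, of 8 stellate and fibroblast markers 3, of 4 endothelial markers 2, and of 7 lymphocyte and neutrophil markers 4, with 0 positive calls in these lists by limma. At the same time 1 of 7 hepatocyte markers was positive and 2 were negative, from -0.52 to 0.30. Their part in the members' ratios was not tested.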

How the data were processed

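The authors deposited log2 ratios of 16 two-colour cDNA arrays, 2 for each of 8 treated mice with the same RNA, per the labels. How they were normalized or background-corrected, why some are blank and which channel is the numerator are points not given in the sources used here. Every value was the log2, with either sign, of a ratio with 1 decimal (the ratio multiplied by 10 was whole to within 0.01), and they were used as deposited. Genes were named from the platform annotation (7407 probes with 1 symbol, 437 with several, 1752 with none). Probes of a gene and then the 2 arrays of a mouse were averaged, and features with values in 6 or more mice were tested.

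The mean of 8 mice against 0, and SY minus TP mice, were fitted with limma 3.58.1 under R 4.3.3 (lmFit, then eBayes; two-sided tests, adjusted by Benjamini-Hochberg over 8348 features, adjusted p under 0.05). Control mice add no spread to the test against 0. The fit was tested on simulated data. Correlations used exact permutation tests (scipy 1.17.1), two-sided. Figures were drawn with matplotlib 3.10.9.

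Values over the mice were given for called members of largest mean with 1 sign in every mouse, up to 14, for called members of families otherwise without one, and for members called between SY and TP. All other members were named with their mean, and up to 3 called genes of each pathway list. Members, lists and rules were chosen with earlier results of these data known.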

Additional observations from a re-analysis of the deposited data

Results flagged for a closer look

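The values of 6 members in 1 mouse each stood away from the other 7 mice by a gap that, as a share of the whole range, exceeded Dixon's critical value for 8 samples. Chance sets about 1 in 20 groups apart in this way.

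Of these, 5 belong to SY518Z. Hsd11b1 was 0.81 in that mouse and at most 0.26 in the others. Hsd17b6 was 0.68 against at most 0. Rdh16f2 was 0.63 against at most 0.26. Aldh1a7 was 0.38 against at most 0. Aldh1b1 was 0.20 against at most -0.14, so it was the only positive mouse of a gene called negative. Over all 8059 features with 8 values, 55 were set apart high by this mouse (0.682%) and 40 low. TP4215 set the most features apart, 156 high (1.94%) and 116 low, but 0 of the oxidoreductases high.

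The remaining value is Adh6b in TP4163, at -0.26 against -0.14 in the next mouse, with both of its arrays at -0.26.

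Rdh11 differed between SY and TP mice by 0.24 on the log2 scale (limma, adjusted p = 0.0415), with every TP mouse more negative than every SY mouse.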

How the results depend on the processing

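No called member changed the sign of its mean under any alternative run, while 10 of 19 uncalled members did in at least 1. With a minimum difference of 1.2-fold (limma's treat), 3 members were called positive in place of 11 and 0 negative in place of 6, with 1 negative at an unadjusted p under 0.05. Over all features that fit called 55 positive in place of 1503 and 68 negative in place of 2119. The spread of the control mice is not in the data. With 7 control mice assumed to vary as much as the treated mice, 9 of 11 positive and 3 of 6 negative calls were kept. The 3 negative ones were Cbr3, Rdh11 and Hsdl1. Over all features that setting called 735 positive and 1076 negative. In SY mice alone 8 members were called positive and 3 negative (Cbr3, Hsdl1 and Adh6b), beside 807 and 1287 of all features. In TP mice alone 8 were called positive and 3 negative (Rdh11, Aldh1b1 and Hsdl1), beside 1309 and 1786 of all features. Leaving out 1 mouse gave 9 to 12 positive and 5 to 8 negative calls, beside 1247 to 1516 and 1738 to 2172 of all features.

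The single SY against TP call changed under many alternatives. By limma it became 0 with arrays scaled to a common size (3 at an unadjusted p under 0.05), 0 with the first array of each mouse (5) and 0 with the array code as a covariate beside the mouse block (4). Over all features these settings called 233, 0 and 157, where 476 were called as reported. The member count became 2 under quantile normalization and 2 without the bl7 array of SY518Z (Rdh11 and Aldh3a1 each time). It was 3 over 16 arrays with mouse as a random block (Rdh11, Aldh3a1 and Aldh2). The counts over all features were 557, 940 and 700. On the second array of each mouse the 1 call was Aldh3a1, beside 224 of all features. Leaving out 1 mouse gave 0 to 4 calls: 4 without SY518Z (Rdh11, Aldh3a1, Hsd3b3 and Adh1), 1 without TP4163 (Cbr3) and 0 without any 1 of the other 6 (3 to 6 at an unadjusted p under 0.05). Over all features 1275 were called without SY518Z, 602 without TP4163 and 57 to 188 without any 1 of the other 6. The cause was not tested. The rounding step of 0.14 limits what can be read for members near 0.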
